A study of Mus musculus with 6 samples.

Results

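The Tex genes are mouse genes named testis expressed, because their transcripts were first noted in the testis. They were taken as every array cluster annotated to a single gene whose symbol is Tex followed by a digit, with 1 further gene of that pattern left out, and 36 of the 19938 genes so named on the array met this rule. Each has 1 cluster on the array. RNA of purified germ cells of C57BL/6 mice was hybridised to Affymetrix MoGene 1.0 ST arrays, which give 1 intensity per transcript cluster. The groups were Rnf8 knockout (KO) round spermatids with 1 array, wild-type (WT) round spermatids with 1 array, KO pachytene spermatocytes with 2 arrays and WT pachytene spermatocytes with 2 arrays. Rnf8 encodes a ubiquitin ligase that acts on histones at DNA breaks. Cells of 3 to 4 males per genotype were separated by gravity sedimentation in albumin, per the study's design text, which gives no age and does not describe the knockout allele. Whether the arrays of a group came from separate preparations is not labelled. The p-values therefore cover the spread among these arrays alone, and it may be technical.

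The Tex genes share a name and not a sequence family or a pathway. Some act in meiosis or in the germ line's defence against transposons, others encode parts of the sperm tail or surface, and a few encode proteins of most cells. Pachytene spermatocytes are in meiotic prophase with their X and Y chromosomes silenced, and round spermatids are the haploid cells that follow and go on to build the acrosome and the tail. The 36 genes lie on 13 chromosomes, 7 of them on X (Tex11, Tex13a, Tex13b, Tex13c1, Tex13c3, Tex16 and Tex28) and 29 on autosomes. Tex19.1 and Tex19.2 are neighbours on chromosome 11 with 0 protein-coding genes between them in the RefSeq order, and every other pair on a chromosome had at least 13.

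The labels were checked first. Of 9 pachytene markers 6 were lower and 1, Spag6, was higher in round spermatids, and of 11 round spermatid markers 9 were higher in round spermatids. The cluster of Rnf8, which also lists Gm28043, had log2 intensities of 7.5 in KO and 7.78 in WT round spermatids, and of 7.86 and 8.05 in KO against 8.51 and 8.86 in WT pachytene spermatocytes. Summed intensity of the 7 Leydig cell markers tested was 1536 in KO and 1331 in WT round spermatids and between 5003 and 7225 on the pachytene arrays, with 6 of the 7 lower in round spermatids, and that of 11 Sertoli cell markers was 5901 and 4725 against 8653 to 10504, with 8 of 11 lower. Of the other marker lists, 1 of 12 spermatogonial markers was higher and 1 lower, 2 of 7 macrophage and blood markers were higher, and of 9 peritubular and vessel markers only decorin was higher. Most Leydig and Sertoli markers thus moved with the cell type, while 17.8% of all genes tested were higher in round spermatids and 17.1% lower. The part of any of these markers in the differences between cell types below was not tested. KO pachytene array 2 stood apart from the other pachytene arrays, at -26.9 on the second principal component (12.6% of the variance) against 2.5 to 16.2. On that component the KO round spermatid array was at -13.5 and the WT one at 8.9.

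Most Tex genes were higher in round spermatids. All 36 reached a log2 intensity of 6 on at least 1 array and entered a limma fit of cell type and genotype over the 6 arrays and 17925 genes. Of the 36, 24 rose at an adjusted p below 0.05, 3 fell and 9 did not pass, against 17.8% of all genes tested that rose and 17.1% that fell. The median difference of the Tex genes, round spermatids minus pachytene spermatocytes, was 1.16 on the log2 scale, against -0.06 over all genes tested. For 20 of the 24 the rise was at least 2-fold, a share that was not computed over all genes. The median rise of the 24 was 1.39, against 0.85 for the 3191 genes of the whole array that rose. Without KO pachytene array 2, 25 rose and 4 fell, and without array 1, 24 rose and 4 fell. Both round spermatid arrays lay above all 4 pachytene arrays for 25 Tex genes (24.1% of all genes tested) and below all 4 for 6 (26.4%). In a mixture of cells, fewer cells of a type and less RNA per cell cannot be told apart.

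**Figure D1:**
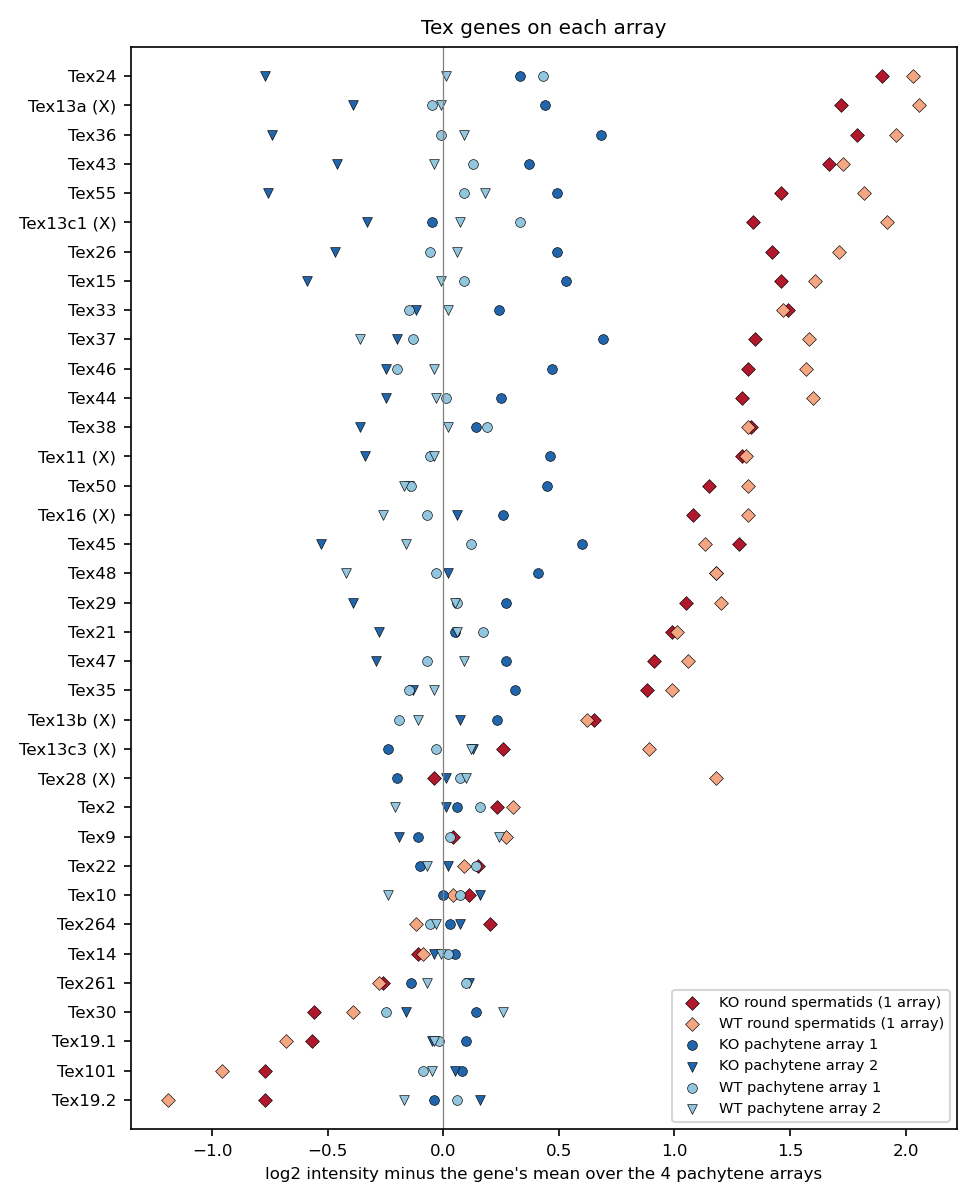
Log2 intensity of each of the 36 Tex genes on each of the 6 arrays, minus that gene's mean over the 4 pachytene arrays. Genes run from the largest rise in round spermatids at the top to the largest fall at the bottom, and (X) marks X-linked genes. For the 24 genes that rose, both diamonds (round spermatids) lie right of all pachytene symbols, and pachytene array 2 of KO is the leftmost pachytene symbol for 16 of them.

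Of the Tex genes that rose, Tex24 on chromosome 8, Tex13a on X and Tex36 on chromosome 7 had the largest differences. Tex24 was at log2 10.73 in KO and 10.86 in WT round spermatids, against 9.16 and 8.06 in KO and 9.26 and 8.84 in WT pachytene spermatocytes. It rose by 1.97 (SE 0.28, adjusted p = 0.00122), or 3.91-fold. Its round spermatid arrays lay well above all pachytene arrays, and KO pachytene array 2 was the lowest. Tex13a was at 10.43 in KO and 10.77 in WT round spermatids, against 9.15 and 8.32 in KO and 8.66 and 8.70 in WT pachytene spermatocytes, a rise of 1.90 (SE 0.22, adjusted p = 0.000492). Tex36 was at 11.08 in KO and 11.25 in WT round spermatids, against 9.97 and 8.55 in KO and 9.28 and 9.38 in WT pachytene spermatocytes, a rise of 1.87 (SE 0.33, adjusted p = 0.003). The KO pachytene arrays of Tex36 differed by 1.41 while its WT arrays differed by 0.10, yet the groups did not overlap.

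Genes for proteins of the sperm tail were among those that rose. Tex43 and Tex37 encode proteins inside the tail's microtubule doublets, Tex33 a protein of ciliary microtubules and Tex45 a protein of the axonemal microtubule stabilizer family. Tex43 was at 11.52 in KO and 11.58 in WT round spermatids, against 10.22 and 9.39 in KO and 9.98 and 9.81 in WT pachytene spermatocytes, a rise of 1.70 (SE 0.21). Tex33 was at 12.05 in KO and 12.03 in WT round spermatids, against 10.80 and 10.44 in KO and 10.41 and 10.58 in WT pachytene spermatocytes, a rise of 1.48 (SE 0.13). Its 2 round spermatid arrays were almost equal and its pachytene arrays lay close together. Tex37 was at 11.29 in KO and 11.52 in WT round spermatids, against 10.63 and 9.74 in KO and 9.81 and 9.58 in WT pachytene spermatocytes, a rise of 1.46 (SE 0.26). All 3 genes had both round spermatid arrays above every pachytene array. Tex45 was at 10.52 in KO and 10.37 in WT round spermatids, against 9.84 and 8.71 in KO and 9.36 and 9.08 in WT pachytene spermatocytes, a rise of 1.20 (SE 0.28, adjusted p = 0.0108). Its call was lost without WT pachytene array 2 (adjusted p = 0.05), and without the KO round spermatid array or the WT one the adjusted p was 0.101 or 0.0913.

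Tex38 encodes a membrane protein that pairs with the palmitoyltransferase ZDHHC19 in mouse spermatids. It was at 12.39 in KO and 12.38 in WT round spermatids, against 11.20 and 10.70 in KO and 11.25 and 11.08 in WT pachytene spermatocytes, a rise of 1.33 (SE 0.16, adjusted p = 0.000548). The round spermatid arrays of the 2 genotypes agreed to within 0.01, and KO pachytene array 2 was again the lowest.

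Other autosomal genes of this kind have less described roles. Tex55 was at 11.14 in KO and 11.50 in WT round spermatids, against 10.17 and 8.92 in KO and 9.77 and 9.86 in WT pachytene spermatocytes, a rise of 1.64 (SE 0.29). Tex26 was at 10.95 in KO and 11.24 in WT round spermatids, against 10.02 and 9.06 in KO and 9.47 and 9.59 in WT pachytene spermatocytes, a rise of 1.56 (SE 0.24). For both, the KO pachytene arrays lay on either side of the WT pair. Tex44 rose by 1.45 (SE 0.16), with 11.22 in KO and 11.53 in WT round spermatids against 10.18 and 9.68 in KO and 9.94 and 9.90 in WT pachytene spermatocytes. Tex46 also rose by 1.45 (SE 0.21), with 10.12 in KO and 10.37 in WT round spermatids against 9.27 and 8.55 in KO and 8.60 and 8.76 in WT pachytene spermatocytes. The remaining autosomal rises were 1.24 for Tex50, 1.19 for Tex48, 1.13 for Tex29, 1.00 for Tex21, 0.98 for Tex47 and 0.94 for Tex35, each at an adjusted p of 0.00249 or less. Without the WT round spermatid array, Tex55, Tex37, Tex47 and Tex35 no longer passed, at adjusted p of 0.0501, 0.0737, 0.055 and 0.0571.

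Tex genes known for meiosis and transposon defence did not move as 1 group. Tex15 encodes a large nuclear protein that acts with PIWIL4 in transposon silencing of mouse fetal germ cells and is also needed for meiotic recombination. It was at 10.80 in KO and 10.95 in WT round spermatids, against 9.87 and 8.75 in KO and 9.43 and 9.33 in WT pachytene spermatocytes. The rise was 1.53 (SE 0.27, adjusted p = 0.00296), and the groups did not overlap. Tex15 and Tex24 are separated by 13 protein-coding genes on chromosome 8. Of 12 tested genes of a list of transposon methylation factors that act with Tex15, 0 rose and 7 fell (median -0.61), with the Tudor gene Tdrd1 at -2.31 and the PIWI gene Piwil2 at -1.59. Tex15 thus differed from the members of that list that passed, all of which were lower. Over all genes tested 17.8% rose and 17.1% fell (median -0.06), and the lists below stand against the same shares.

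Tex11, X-linked, encodes a protein that promotes synapsis and crossover formation in mouse spermatocytes. It was at 7.24 in KO and 7.26 in WT round spermatids, against 6.41 and 5.61 in KO and 5.89 and 5.91 in WT pachytene spermatocytes, a rise of 1.30 (SE 0.20, adjusted p = 0.00175). Its pachytene values lay around the lower quartile of those arrays, log2 6.15 to 6.28, so the size of the rise is uncertain. Of 15 tested genes for crossover designation and synapsis, 1 (Syce2) rose and 8 fell (median -0.63), among them the crossover factors Ccnb1ip1 at -1.90 and Mlh3 at -1.75.

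Tex19.2, Tex101 and Tex19.1 fell. Tex19.1 binds the ubiquitin ligase UBR2 and holds down retrotransposons in mouse germ cells, and Tex19.2 is its close paralog. Tex19.2 was at 8.02 in KO and 7.60 in WT round spermatids, against 8.75 and 8.95 in KO and 8.85 and 8.62 in WT pachytene spermatocytes, a difference of -0.98 (SE 0.13, adjusted p = 0.00093). Tex19.1 was at 7.09 in KO and 6.98 in WT round spermatids, against 7.76 and 7.61 in KO and 7.64 and 7.62 in WT pachytene spermatocytes, a difference of -0.62 (SE 0.10, adjusted p = 0.00254). Neither gene's groups overlapped, but whether their probes tell the paralogs apart was not tested. Without the WT round spermatid array, the adjusted p of Tex19.1 was 0.0715. Of the 4 tested genes of a list of UBR2 and related ubiquitin enzymes, 1 rose, the conjugating enzyme gene Ube2a at 1.67, and 1 fell, Ubr1 at -0.57 (median 0.00). The shares over all genes tested were 17.8% and 17.1%.

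Tex101 encodes a surface protein of germ cells that the sperm protein ADAM3 needs in order to mature in the mouse. It was at 10.93 in KO and 10.74 in WT round spermatids, against 11.78 and 11.75 in KO and 11.61 and 11.65 in WT pachytene spermatocytes, a difference of -0.86 (SE 0.10, adjusted p = 0.000497). The pachytene values of the 4 arrays lay within a narrow band and both round spermatid arrays were clearly below it. Of 18 tested genes for ADAM3 maturation and TEX101 partners, 9 rose and 1 fell (median 0.34), with the disintegrin genes Adam4 at 2.04 and Adam6a at 1.88.

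For 9 Tex genes the difference between cell types did not pass. Tex14, whose product keeps the bridges between germ cells open by holding CEP55, was at 10.39 in KO and 10.41 in WT round spermatids, against 10.55 and 10.46 in KO and 10.52 and 10.49 in WT pachytene spermatocytes. Its difference of -0.11 (SE 0.10, adjusted p = 0.488) was small beside most of the others, although its round spermatid arrays lay just below all 4 pachytene arrays. Of 13 genes for intercellular bridges and abscission, 3 rose and 5 fell (median -0.26), against 17.8% and 17.1% of all genes tested. The anillin gene Anln was at -1.01 and the kinase gene Aurkb at -0.92.

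Tex10 encodes a partner of PELP1 in ribosome maturation and differed by 0.08 (SE 0.13), with 11.61 in KO and 11.54 in WT round spermatids against 11.50 and 11.66 in KO and 11.57 and 11.26 in WT pachytene spermatocytes. Of 6 genes of the PELP1 complex and ribosome maturation, 1 rose and 2 fell (median -0.22), against 17.8% and 17.1% of all genes tested. The 2 were Nol9 at -0.61 and Mdn1 at -0.50. Tex264, a receptor for the autophagy of endoplasmic reticulum described in human cells, differed by 0.04 (SE 0.11), with 11.25 in KO and 10.93 in WT round spermatids against 11.08 and 11.12 in KO and 10.99 and 11.02 in WT pachytene spermatocytes. Its 2 round spermatid arrays lay on either side of all 4 pachytene arrays. Of 8 tested genes for that form of autophagy, 4 rose and 2 fell (median 0.16), with Atl3 at 1.37 and Retreg3 at 1.30.

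Tex2, a lipid transfer protein of the endoplasmic reticulum, differed by 0.26 (SE 0.13), with 12.42 in KO and 12.49 in WT round spermatids against 12.25 and 12.20 in KO and 12.35 and 11.98 in WT pachytene spermatocytes. Tex261, whose yeast homolog is a cargo adaptor between endoplasmic reticulum and Golgi, differed by -0.27 (SE 0.12), with 11.64 in KO and 11.62 in WT round spermatids against 11.76 and 12.01 in KO and 12 and 11.83 in WT pachytene spermatocytes. For both genes the cell types did not overlap, but the adjusted p was 0.18 and 0.13. Of the others, Tex30 was at -0.47 (adjusted p = 0.0614), Tex28 at 0.57 (0.0809), Tex9 at 0.16 and Tex22 at 0.12.

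All 7 X-linked Tex genes had a positive difference and 6 of them rose, Tex28 being the exception. The median was 1.21 for the 7 X-linked and 1.13 for the 29 autosomal Tex genes, and 40.2% of 624 tested X-linked genes rose. Of the X-linked family Tex13, Tex13c1 rose by 1.62 (SE 0.13, adjusted p = 0.000186), Tex13b by 0.63 and Tex13c3 by 0.58. Tex13c1 was at 10.83 in KO and 11.41 in WT round spermatids, against 9.44 and 9.16 in KO and 9.82 and 9.56 in WT pachytene spermatocytes. Tex16 rose by 1.21 (SE 0.15). Family members with near-identical copies on X could share probes, and this was not tested. Tex13b was at 7.07 in KO and 7.04 in WT round spermatids, against 6.65 and 6.49 in KO and 6.23 and 6.31 in WT pachytene spermatocytes. As the lower quartile of both WT pachytene arrays was log2 6.24, the size of the rise is uncertain for Tex13b. It did not pass without the WT round spermatid array (adjusted p = 0.122). Tex13c3 did not pass without that array (0.475), without WT pachytene array 1 (0.0848) or 2 (0.0867), or with the replicate number of the titles as a block (0.0968).

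The start regions of the genes were searched for motifs of factors that act in these cells. RefSeq windows of GRCm38.p6, from 250 bases before to 50 bases after a gene's start, were at hand for 29 of the 36 genes. The full cAMP response element TGACGTCA, bound by CREM in spermatids, was in 0 of the 29 and in 2.03% of 27025 genes with a window. Its core TGACG, counted also where it lies in the full element and on either strand, was in 5 of the 29 (17.2%), namely Tex13c1, Tex19.2, Tex30, Tex36 and Tex50, and in 23.0% of all genes. The MYB-type motif AACNGTT, which reads alike on both strands, was in 3 of the 29 (10.3%), Tex13c3, Tex21 and Tex46, and in 5.01% of all genes. The windows of 3 genes that rose and of Tex19.2, which fell, are shown 5′ to 3′ on the gene's strand, with TGACG on either strand (CGTCA on the reverse) or AACNGTT in capitals.
Tex36, chr7:133602066-133602365 (-): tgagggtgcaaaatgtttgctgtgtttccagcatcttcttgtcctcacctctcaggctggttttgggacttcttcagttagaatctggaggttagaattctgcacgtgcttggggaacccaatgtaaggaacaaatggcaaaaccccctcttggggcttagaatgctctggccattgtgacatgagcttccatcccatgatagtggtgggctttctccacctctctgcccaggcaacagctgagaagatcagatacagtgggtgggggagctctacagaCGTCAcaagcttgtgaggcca
Tex13c1, chrX:43590739-43591038 (+): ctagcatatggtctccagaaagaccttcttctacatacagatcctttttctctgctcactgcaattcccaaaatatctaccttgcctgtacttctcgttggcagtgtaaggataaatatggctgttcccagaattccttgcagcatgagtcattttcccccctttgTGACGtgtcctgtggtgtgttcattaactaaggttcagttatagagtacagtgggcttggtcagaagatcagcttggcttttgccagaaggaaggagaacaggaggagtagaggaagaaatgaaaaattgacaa
Tex46, chr4:136610187-136610486 (+): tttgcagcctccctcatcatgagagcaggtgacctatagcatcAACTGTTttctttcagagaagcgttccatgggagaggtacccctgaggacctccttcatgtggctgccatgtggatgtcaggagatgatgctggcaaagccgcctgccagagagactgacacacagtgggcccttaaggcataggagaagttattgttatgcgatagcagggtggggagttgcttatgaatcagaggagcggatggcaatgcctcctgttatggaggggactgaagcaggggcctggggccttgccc
Tex19.2, chr11:121118628-121118927 (-): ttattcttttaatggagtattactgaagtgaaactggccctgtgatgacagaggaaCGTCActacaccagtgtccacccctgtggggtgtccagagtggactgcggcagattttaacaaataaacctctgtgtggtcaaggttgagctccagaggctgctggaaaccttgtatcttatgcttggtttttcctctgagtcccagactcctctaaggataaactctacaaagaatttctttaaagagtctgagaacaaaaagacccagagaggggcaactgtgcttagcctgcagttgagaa
The TGACG core is thus in the window of a gene that fell as well as of genes that rose. A match of letters is not a bound site.

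The difference between the cell types was then taken within each genotype, where 1 round spermatid array stands against 2 pachytene arrays and is assumed to vary like them. In KO, 17 Tex genes rose and 2 fell, against 8.36% and 7.18% of all genes tested. In WT, 24 rose and 3 fell, against 11.5% and 8.45%. With 1 KO pachytene array left out, 1 array stands against 1 in KO, and the WT pair alone sets the spread. Counts without a KO pachytene array are therefore no check of these calls. All 19 Tex genes called in KO were also called in WT, and 8 were called in WT alone. The shares called in both genotypes or in WT alone were not computed over all genes tested. By the shares above, more of all genes tested were called in WT than in KO, in either direction. The sign was the same in both genotypes for 35 of 36 genes, the exception being Tex264 at 0.15 in KO and -0.07 in WT. Across the 36 genes, differences in KO and in WT, which share no array but were normalised together, correlated at Pearson r = 0.94, as they did over all 17925 genes (0.94).

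**Figure D2:**
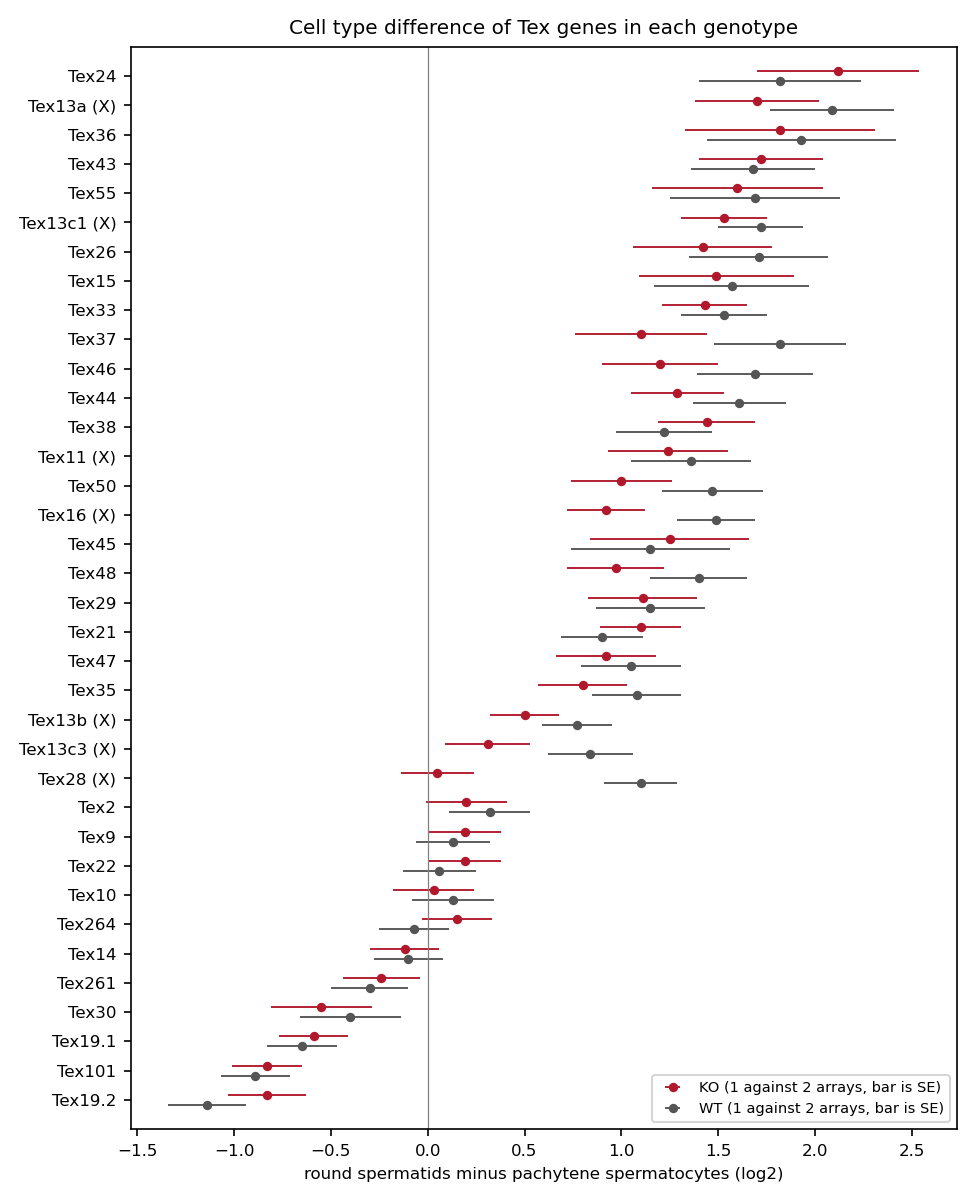
Difference between round spermatids and pachytene spermatocytes on the log2 scale for the 36 Tex genes, in KO (red, upper point of each gene) and in WT (grey), with standard errors of the 4-group limma fit. The gap between the 2 points of a gene is largest for Tex28, at 0.05 in KO and 1.1 in WT, followed by Tex37, Tex16 and Tex13c3.

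The fit within a genotype pools the spread of the KO and the WT pachytene pair, so a gene has 1 standard error for both genotypes. For Tex36 it was 0.49, while the standard deviation of the pair was 1.0 in KO and 0.07 in WT. The spread in KO can thus be understated. Counts fell when a WT pachytene array was left out, which leaves the KO pair alone to set the spread. Without WT pachytene array 1 the counts of called Tex genes were 11 in KO and 13 in WT, and without array 2 they were 11 in both. The interaction of genotype and cell type, which tests the difference between these differences, passed in limma for 0 Tex genes and 0.0% of all genes tested. At an unadjusted p under 0.05 there was 1 Tex gene, Tex28 at -1.05 (SE 0.27, limma adjusted p = 1), against 0.725% of all genes tested. As its intensity was below the lower quartile on 5 of the 6 arrays, that size is uncertain. An interaction below 0 means a smaller rise or larger fall in KO. No share over all X-linked genes was computed for it. The interaction was below 0 for 24 of 36 Tex genes, all 7 on X among them, and for 45.2% of all genes tested. Among the 3191 genes that rose in round spermatids it was below 0 in 75.3%, and among the 24 Tex genes that rose in 19.

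In pachytene spermatocytes no Tex gene passed for KO against WT. The limma fit called 0 of 36, with 0 at an unadjusted p under 0.05, and it called 0.0% of all genes tested, with 2.4% at that unadjusted p. Differences ran from -0.44 to 0.49 with a median of 0.01, against 0.03 over all genes, and standard errors ran from 0.14 to 0.40. The difference was below 0 for 17 of the 36 and for 40.1% of all genes tested. Both KO arrays lay above both WT arrays for 5 Tex genes (14.9% of all genes tested), namely Tex16, Tex48, Tex13b, Tex264 and Tex101, and below for 4 (10.2%), Tex13c1, Tex21, Tex28 and Tex9.

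The largest differences above WT in pachytene spermatocytes were 0.49 for Tex37 (SE 0.28), 0.44 for Tex48 (SE 0.21), 0.33 for Tex16 (SE 0.16) and 0.31 for Tex50 (SE 0.21). Tex48 was at 11.72 and 11.33 in KO and 11.28 and 10.89 in WT pachytene spermatocytes, and at 12.49 in round spermatids of either genotype. Tex16 was at 7.38 and 7.18 in KO and 7.05 and 6.86 in WT pachytene spermatocytes, and at 8.20 in KO and 8.44 in WT round spermatids. For both genes each KO array lay above both WT arrays, by a small gap in the pachytene stage. Tex50 was at 11.20 and 10.60 in KO and 10.61 and 10.58 in WT pachytene spermatocytes, and at 11.90 in KO and 12.07 in WT round spermatids. For Tex37 and Tex50 the KO arrays differed among themselves by 0.88 and 0.60, and the difference was within that spread. The largest differences below WT were -0.44 for Tex24 (SE 0.34), -0.39 for Tex13c1 (SE 0.18), -0.29 for Tex9 (SE 0.16) and -0.27 for Tex55 (SE 0.36). Tex9 was at 10.08 and 10.00 in KO and 10.22 and 10.43 in WT pachytene spermatocytes, and at 10.23 in KO and 10.46 in WT round spermatids. Without KO pachytene array 2 the difference of Tex24 was 0.11 and that of Tex55 was 0.35, so their direction rested on that array. Without KO pachytene array 1 the difference of Tex37 was 0.05 and that of Tex50 was 0.01, so the size of these rested on array 1. Leaving out array 1 or array 2 moved Tex48 to 0.24 or 0.64, Tex16 to 0.23 or 0.42 and Tex13c1 to -0.53 or -0.25.

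The KO pachytene arrays differed from each other for the Tex genes that rose in round spermatids. KO pachytene array 1 was the highest of the 4 pachytene arrays for 19 of the 24 such genes, and KO pachytene array 2 the lowest for 16. The shares of these were not computed over all genes tested or over all genes that rose. Array 1 lay above array 2 for 23 of the 24, with a median difference of 0.63 and a highest of 1.41 for Tex36, while Tex13c3 was at -0.37. Between the WT pachytene arrays the median of the same 24 genes was 0.02, and differences lay between -0.17 and 0.42. For the 3191 genes of the whole array that rose in round spermatids, 73.4% lay higher on KO pachytene array 1 than on array 2, with a median of 0.21, against 41.8% and a median of -0.06 for all genes tested. Across the 36 Tex genes the difference between the KO pachytene arrays correlated with the rise measured in WT, which uses neither array, at Pearson r = 0.72 (0.29 over all genes tested). Summed intensity of the 11 round spermatid markers was 45822 on KO pachytene array 1 and 36399 on array 2, against 39396 and 36085 on the WT pachytene arrays. That of the 9 pachytene markers was also higher on KO array 1, at 44461 against 39071, with 43312 and 42726 in WT. That of the 7 Leydig markers was lower on KO array 1, at 5003 against 7057, with 6284 and 7225 in WT. The gap between the KO arrays was thus not particular to spermatid markers. The part of spermatid transcripts in the pachytene values was not tested.

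**Figure D3:**
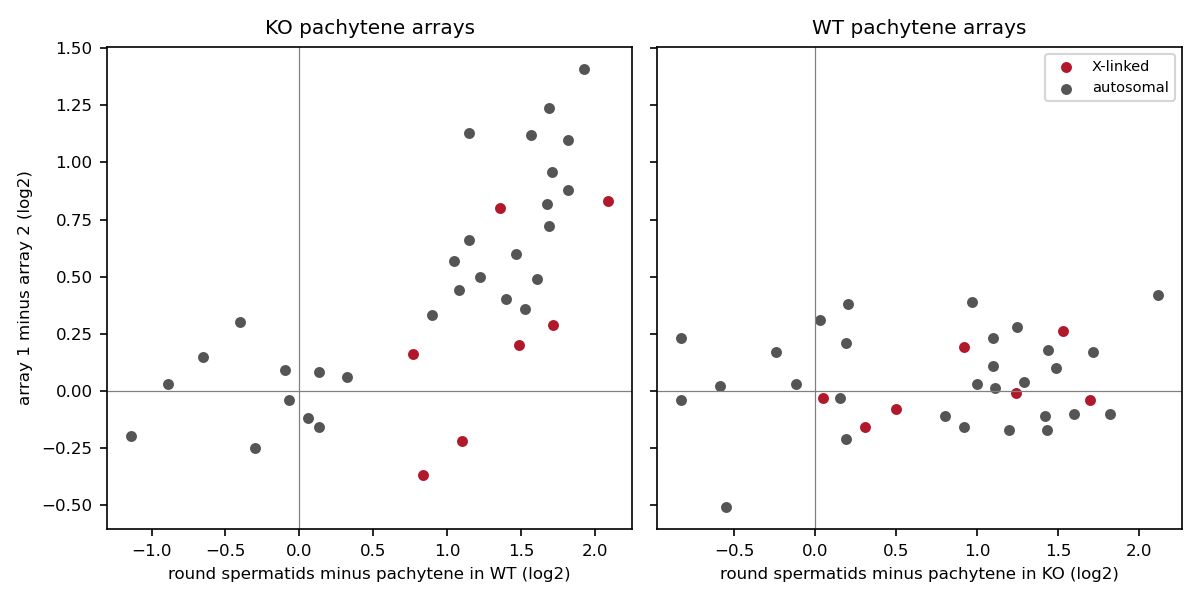
Pachytene array 1 minus array 2 on the log2 scale, for KO (left) and WT (right), against the difference between cell types in the other genotype, 1 point per Tex gene. Red marks X-linked genes. KO differences reach 1.41 among genes that rose, while WT differences stay between -0.51 and 0.42.

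In round spermatids, with 1 array per genotype and so no replicate check, genes past a 2-fold difference were counted. Tex28, lower in KO, was the 1 Tex gene counted. A limma fit that lends these arrays the spread of the pachytene arrays passed 0 Tex genes. Of all genes tested 0.351% were at least 2-fold lower in KO and 0.0335% higher, 0.385% in all. Tex28 was at log2 5.86 in KO and 7.08 in WT round spermatids, against 5.70 and 5.91 in KO and 5.97 and 6.00 in WT pachytene spermatocytes. Only the WT round spermatid array stood above the other 5, all of which lay below the lower quartile of their arrays. The size of any difference of Tex28 is therefore uncertain, and so is its count past 2-fold. Tex13c3 was at 7.76 in KO and 8.39 in WT round spermatids, against 7.26 and 7.63 in KO and 7.47 and 7.62 in WT pachytene spermatocytes, a difference between genotypes of -0.63 in round spermatids. Tex13c1 differed by -0.57 and Tex55 by -0.36. Above WT were Tex19.2 at 0.43, Tex264 at 0.32, Tex101 at 0.19 and Tex45 at 0.15.

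The 7 X-linked Tex genes had a median difference of -0.34 between the KO and the WT round spermatid array, with 6 of 7 lower in KO and Tex13b at 0.03. The 29 autosomal ones had a median of -0.07, with 18 lower in KO, and all genes tested a median of 0.05, with 40.9% lower. Among the genes that rose in round spermatids 72.3% were lower in KO, with a median of -0.11. There was no replicate check of any of these values, and the same was not computed for all X-linked genes.

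**Figure D4:**
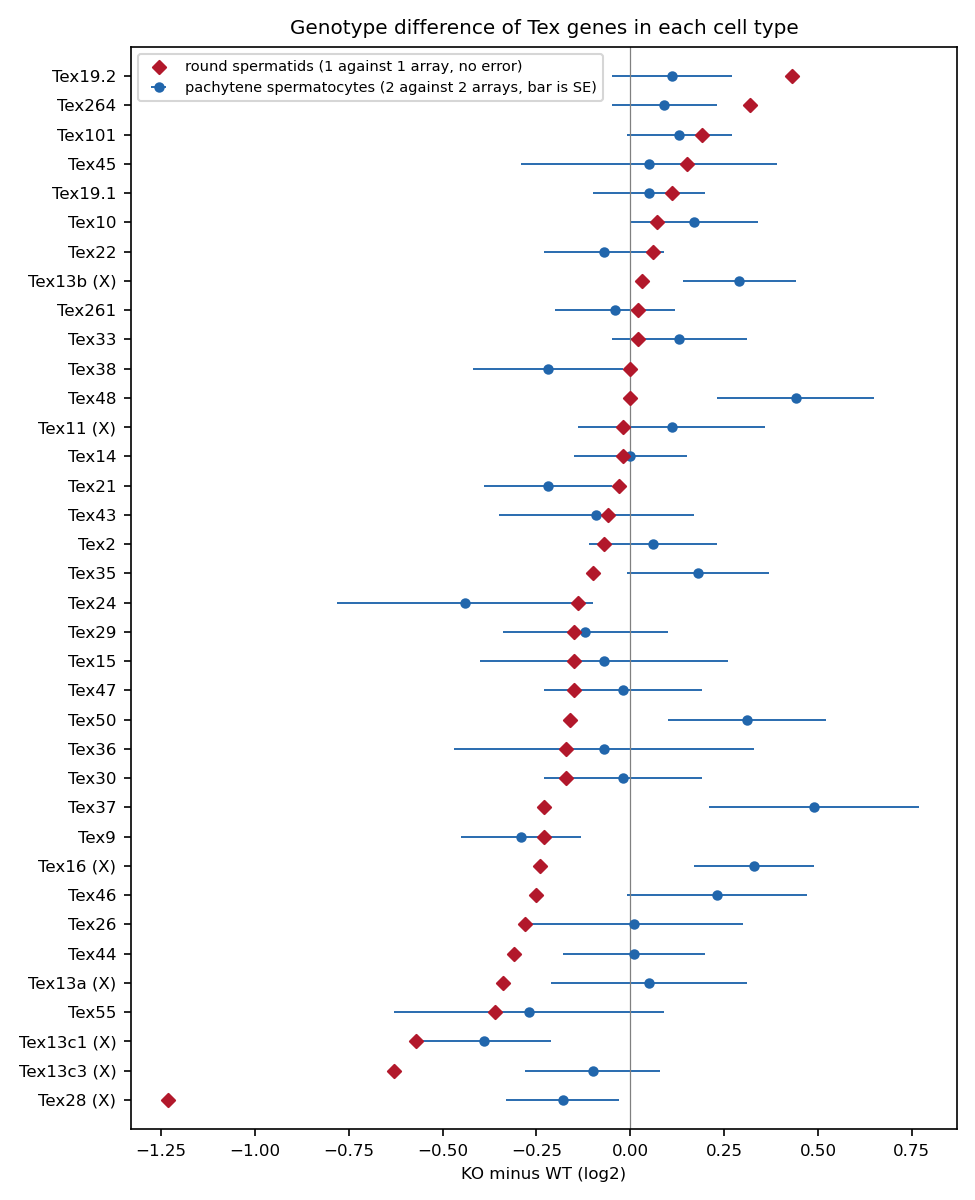
KO minus WT on the log2 scale for the 36 Tex genes, in round spermatids (red diamonds, 1 array each) and in pachytene spermatocytes (blue points with the standard error of the limma fit, 2 arrays each), ordered by the value in round spermatids. Most values lie within 0.5 of 0, and Tex28, dim on every array but the WT round spermatid one, lies farthest below 0 in round spermatids.

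Over both cell types, with 3 KO and 3 WT arrays and cell type as a term, limma passed 0 Tex genes and 0.0% of all genes tested. At an unadjusted p under 0.05 were 3 Tex genes, Tex13c1 at -0.45 (SE 0.13, adjusted p = 0.702), Tex28 at -0.53 and Tex9 at -0.27, against 5.46% of all genes tested. The difference was below 0 for 20 of the 36 and for 37.8% of all genes tested. Within each cell type, every KO array of Tex13c1 lay below every WT array, as it did for Tex28, Tex9 and Tex21, that is for 4 Tex genes (7.09% of all genes tested). For Tex13b, Tex264 and Tex101 every KO array lay above. This held for Tex48 too when unrounded values were compared, since its round spermatid arrays were equal to 2 decimals, which makes 4 Tex genes (10.9% of all genes tested). No minimum gap was set in these counts. The differences of Tex48 and Tex13b were 0.29 and 0.21, those of Tex37 and Tex19.2 were 0.25 and 0.22, and those of Tex24 and Tex55 were -0.34 and -0.30. None of the partner lists above had a gene that passed for KO against WT in pachytene spermatocytes or over both cell types.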

How the data were processed

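The authors deposited intensity on a linear scale, which per the submitters' processing notes came from RMA in Affymetrix Expression Console 1.1. The options and the genome build were not given in the sources used here. Log2 of the deposited intensity was taken. Clusters with 1 gene symbol in the platform annotation were used (21789 of 35556), with the cluster of highest mean for a gene with several, and all 36 Tex genes matched RefSeq by gene identifier. The 17925 genes that reached log2 6 on 1 array or more were tested with limma 3.58.1 in R 4.3.3 (lmFit, eBayes), Benjamini-Hochberg adjustment over all of them and a threshold of 0.05. Fits were additive in cell type and genotype, or with 4 group means. KO against WT in round spermatids has 1 array each, so genes at least 2-fold apart were counted without a test. Median intensity per array was 197.3 to 217.7. For arrays, their number limits the precision. Per-array values are given for up to 12 rises and falls, the 4 largest differences between genotypes in each direction and members with described roles. The members, lists and named genes were chosen with earlier results of these data known. No measure of probe background was used, and 1 gene of the name pattern is not reported here. The fits were also run on simulated data in which a gene had the same spread on every array. That setting does not cover KO and WT pachytene pairs of unlike spread. Deviations of same-numbered pachytene arrays correlated at -0.227 across genes. Alternatives changed normalisation, an offset, the filter, the prior, the cluster choice, the replicate block and the arrays.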

Additional observations from a re-analysis of the deposited data

How the results depend on the processing

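For round spermatids against pachytene spermatocytes, the number of Tex genes that passed was 27 over both genotypes, 27 in WT and 19 in KO. Leaving out each array in turn gave 19 to 29, 11 to 28 and 11 to 26. Within a genotype both ends of the range came with a pachytene array left out, where the other genotype's pair alone or the KO pair alone sets the spread. With the replicate number as a block the counts were 26, 26 and 24. A crossed pairing of the numbers, chosen after seeing the data, gave 29, 28 and 24. The counts of Tex genes for KO against WT in pachytene spermatocytes, over both cell types and for the interaction were 0 under every alternative run, both replicate blocks included. The interaction cannot be formed without a round spermatid array, so it was run only with a pachytene array left out. For KO against WT, leaving out a round spermatid array gives the pachytene comparison again and adds no check. Over all genes, KO against WT in pachytene spermatocytes passed 43 genes with the replicate block and 88 with the crossed one, against 0 without. Of the 27 Tex genes called over both genotypes, 19 kept their call under all 15 alternatives, and the others lost it without the WT round spermatid array. Without that array the fit equals the comparison within KO, and without the KO one it equals that within WT. These alternatives thus repeat the results within each genotype. Tex28, the 1 Tex gene counted past 2-fold in round spermatids, was not among the genes tested with a filter of log2 7 on 2 arrays (count 0), and the limma fit that lends the lone arrays the pachytene spread passed 0. Some genotype differences that did not pass turned sign when 1 array was left out. In pachytene spermatocytes Tex24 ran from -0.99 to 0.11 and Tex55 from -0.89 to 0.35, and over both cell types from -0.63 to 0.01 and from -0.67 to 0.05, with the positive ends without KO pachytene array 2. Over both cell types Tex37 ran from -0.07, without KO pachytene array 1, to 0.49, without the WT round spermatid array. Without a round spermatid array this fit gives the difference in pachytene spermatocytes, so 0.49 is that value again. The cause of the turns in sign was not tested. Dim genes such as Tex28, Tex11 and Tex13b lie near the lower quartile of the arrays, which limits the size of their differences.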
